A study of Mus musculus with 8 samples.

Results

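Mitochondrial ribosomal proteins were followed in cultured mouse astrocytes before and during transformation by an oncogenic receptor. The members are the genes whose symbol is Mrpl or Mrps followed by a number and at most 1 letter. There were 77 such genes among the 13607 of the count table. By their known place in the mitochondrial ribosome, 50 belonged to the large subunit and 26 to the small subunit. The remaining member, Mrps36, carries the name but is known as a component of the 2-oxoglutarate dehydrogenase complex, and it was kept apart. Despite their symbols, Mrps30 and Mrps18a sit in the large subunit and were counted there.

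All 4 groups were astrocytes of C57BL/6J background with the alleles Yapf/f;Tazf/f, in which Cre can delete Yap1 and Taz (Wwtr1). Per the labels and series text, lentiviral vectors supplied a constitutively active HER2 (HER2CA) under doxycycline control, the activator rtTA, and CreERT2, a Cre activated by 4-hydroxytamoxifen (4OH-TAM). Control astrocytes were untreated and received no doxycycline. HER2CA day 15 received doxycycline for 15 days, with DMSO according to one label, whereas the treatment text calls such cells untreated. HER2CA 4OH-TAM day 15 received doxycycline and 1 µM 4OH-TAM and is labelled a YAP/TAZ knockout. Gliomaspheres were grown in suspension with doxycycline (DMSO on the label) and collected 3 weeks after the start. The medium of every group contained EGF and bFGF. Each group had 2 libraries, A and B. The sources used here do not say whether A and B were separate cultures, so the p-values speak to the spread between libraries, which may be technical.

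The mitochondrial ribosome is built inside the organelle from ribosomal RNAs encoded by mitochondrial DNA and from proteins encoded by nuclear genes, which are made in the cytosol and imported. It translates the few mRNAs of the mitochondrial genome, all for subunits of the respiratory chain and ATP synthase. Many of its proteins descend from bacterial ribosomal proteins, while others are found only in mitochondria. Among the members, 46 had a bacterial counterpart and 30 were specific to mitochondria.

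Libraries held 15517708 to 28231426 counts. Gliomaspheres B stood apart, with 36.1% of its counts on the ribosomal RNA precursor Rn45s against 0.984 to 2.92% in the other libraries. Levels are CPM, counts relative to the library total, scaled by the trimmed mean of M values (TMM). Raw counts of the members ranged from 58 for Mrps18c to 3894 for Mrpl38 across the libraries, so all 77 members were tested. Yap1 had a level of 101 and 103 CPM for HER2CA day 15 and 107 and 103 in the 4OH-TAM-labelled libraries, and Wwtr1 at 194 and 210 against 123 and 122 CPM. Wwtr1 fell between these groups (log2 fold change -0.73, edgeR adjusted p = 1.25e-07) and Yap1 did not pass (0.04, adjusted p = 0.569). Counts per gene do not show whether reads come from deleted exons, and the group is referred to as 4OH-TAM-labelled libraries. Endogenous Erbb2 did not pass the test between HER2CA day 15 and control astrocytes (log2 fold change -0.07, SE 0.086, edgeR adjusted p = 0.461). Summed astrocyte markers (12 of 12 measured) were 7040.6 to 8229.5 CPM in control astrocytes, 2947.0 to 3045.5 in HER2CA day 15, 13795.8 to 14302.6 in the 4OH-TAM-labelled libraries and 12685.8 to 13209.2 in gliomaspheres. Of the markers of other cell types, microglia and macrophage markers (14 of 15 measured) summed to 221 to 246, 216 to 230, 1137.5 to 1182.8 and 123 to 128 CPM in the same order of groups, and oligodendrocyte lineage markers (9 of 10 measured) to 468 to 506, 110 to 119, 908 to 952 and 2995.1 to 3306.2 CPM. Neuron markers (5 of 8 measured) summed to 341 to 344, 133 to 143, 375 to 390 and 636 to 650 CPM, with Dcx at 0 in both HER2CA day 15 libraries and no other measured marker at 0 in both libraries of a group. Fibroblast and mural markers (8 of 9 measured) summed to 257 to 290, 271 to 274, 227 to 275 and 42.1 to 48.1 CPM. Endothelial markers (2 of 6 measured) summed to 38.4 CPM or less. Single markers can differ from the sums (edgeR, adjusted p under 0.05). In the 4OH-TAM-labelled libraries 7 fibroblast and mural markers were higher and 1 lower than in HER2CA day 15 (median log2 fold change 2.96). Against control astrocytes the counts were the same (median 1.53). Of all genes 40.8% and 31% were higher. In HER2CA day 15, 10 of 14 microglia and macrophage markers were lower than in control and 1 higher (median -0.81). Of all genes 38.4% were lower. The part of these differences in the results on the members was not tested.

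As a whole, the mitochondrial ribosomal protein transcripts were highest in HER2CA day 15. Their summed level was 2586.1 and 2672.1 CPM in control astrocytes, 3574.7 and 3698.2 in HER2CA day 15, 2301.5 and 2273.1 in the 4OH-TAM-labelled libraries, and 2614.4 and 2342.1 in gliomaspheres. Both HER2CA day 15 libraries lay above the other 6, and the control astrocytes and gliomaspheres overlapped. The order of the group means was the same within each subunit: the small-subunit sum was 872 ± 7.2 CPM (SD, n = 2) in control astrocytes and 1113.4 ± 31.9 CPM (SD, n = 2) in HER2CA day 15, and the large-subunit sum was 1743.6 ± 53.9 CPM (SD, n = 2) and 2517.6 ± 56.7 CPM (SD, n = 2). Gene by gene, 47 of the 77 members had both HER2CA day 15 libraries above the other 6, against 31.5% of all genes. In 5 members both HER2CA day 15 libraries lay below the other 6, against 30.2% of all genes. In these bulk samples, fewer cells of a type and less RNA per cell cannot be told apart.

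**Figure D1:**
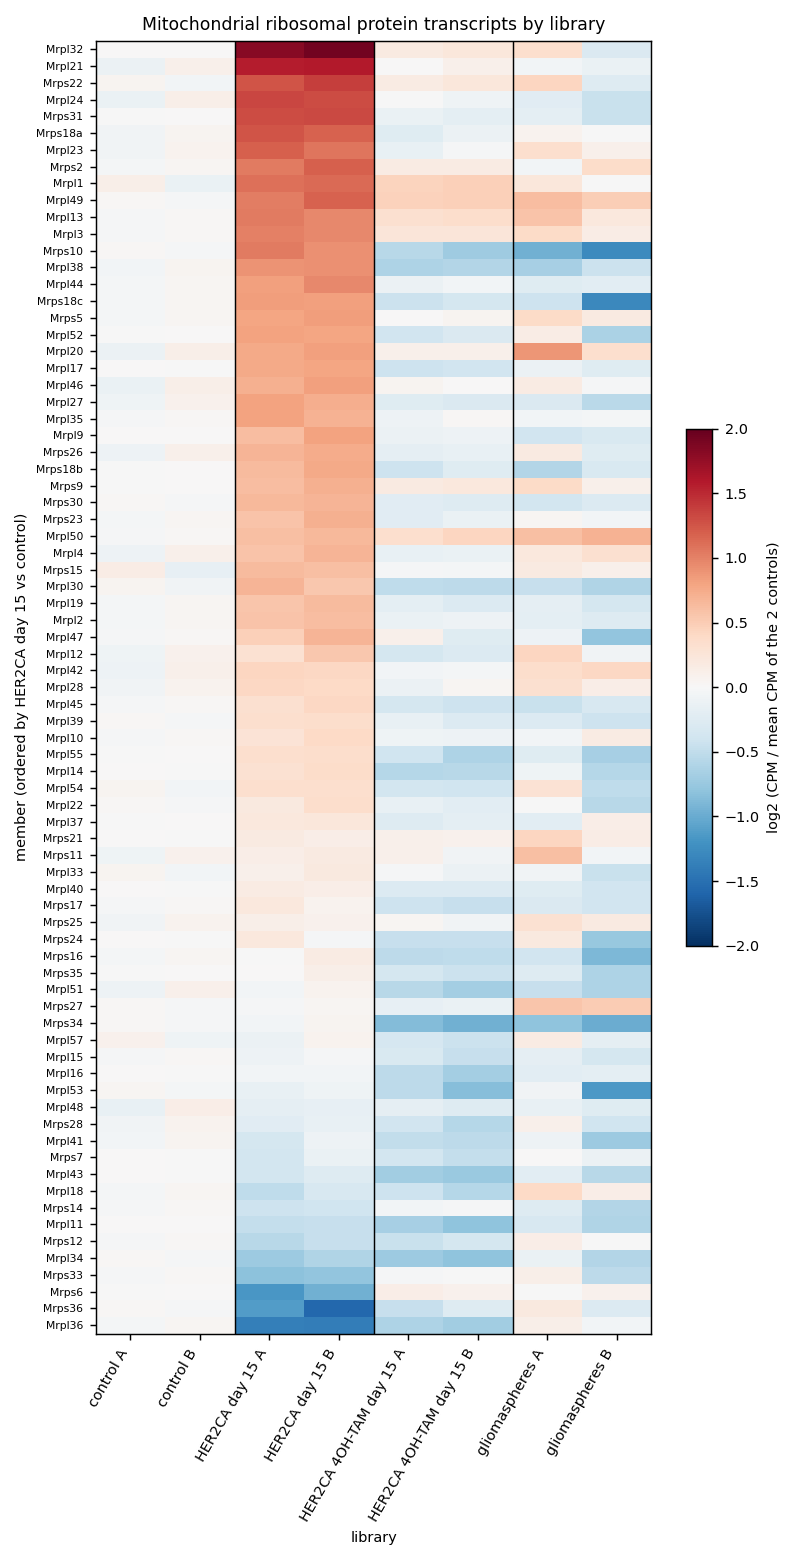
Level of each of the 77 members (rows) in the 8 libraries (columns), as the log2 ratio of its CPM to the mean CPM of the 2 control libraries, red for higher and blue for lower. The HER2CA day 15 columns are red for most rows and dark blue for a small group at the bottom that includes Mrpl36, Mrps36, Mrps6 and Mrps33, and the other columns stay pale for most rows.

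Within control astrocytes the members differed widely in level per length. Length was the union of all annotated exons of a gene, which can exceed its mRNA, so values per length depend on the annotation. Per kilobase of exon the median was 13.3 CPM, the lowest value was 2.21 CPM for Mrpl33 and the next 2.65 CPM for Mrpl23. The highest was 68.5 CPM for Mrps6, a protein of the small subunit, a ratio of 31 to the lowest. Mrps6 shares its first exon with Slc5a3, an inositol transporter gene, on the same strand, so reads of these genes may not be separable. The next highest were Mrpl41 at 46.2 and Mrps21 at 43.6 CPM per kilobase. In GENCODE M21 on GRCm38 the members lay on 17 chromosomes. Exons overlapped those of another gene in 32 members, on the same strand in 8 and on the opposite strand in 27. The 8 were Mrpl3, Mrpl33, Mrpl51, Mrpl53, Mrps18c, Mrps24, Mrps34 and Mrps6. The 27 included Mrpl21, Mrpl24, Mrpl10, Mrpl12, Mrpl13, Mrpl18, Mrpl43, Mrpl44, Mrps18b, Mrps27 and Mrps30, which are described below. Reads of overlapping genes may not be separable. The 45 members with no overlap had the same median change as all members between HER2CA day 15 and control astrocytes (0.40 on the log2 scale), with 28 called higher and 6 lower. Mrpl23, Mrpl48 and Mrps36 have pseudogenes named after them, and their counts are uncertain to that extent.

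The first comparison asked how the members differed 15 days after HER2CA induction. Between HER2CA day 15 and control astrocytes, 46 members were higher and 11 lower at an edgeR adjusted p under 0.05, and 20 did not pass. Over all genes 37.3% were called higher and 38.4% lower. The median log2 fold change of the members was 0.40, beside -0.02 over all genes. The spread of changes was narrower than over all genes, with an SD over members of 0.63 against 1.23 on the log2 scale. In the large subunit 35 of 50 rose and 5 fell, with a median of 0.51. In the small subunit 11 of 26 rose (42.3%, near the 37.3% of all genes) and 5 fell (19.2%), with a median of 0.15. The difference between the subunits was not tested. Members with a bacterial counterpart had a median of 0.51 (29 higher and 8 lower of 46) and mitochondria-specific members 0.36 (17 higher and 2 lower of 30).

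The largest increase among the members was that of Mrpl32 (chr13:14608184-14613165, minus strand), a large-subunit protein that a protease of the inner membrane processes before it joins the ribosome. Its level was 18.3 and 18.3 CPM in control astrocytes, 64.4 and 69.9 in HER2CA day 15, 20.8 and 21.5 in the 4OH-TAM-labelled libraries, and 23.1 and 15 in gliomaspheres. Both HER2CA day 15 libraries were far above the other 6, which lay between 15 and 23.1 CPM. Mrpl32 rose 3.68-fold over control (log2 fold change 1.88, SE 0.126, adjusted p = 3.06e-09). Mrpl21 (chr19:3282901-3292837, plus strand), also of the large subunit, followed the same pattern. It stood at 21.1 and 24.6 CPM in control astrocytes, 67.7 and 68.9 in HER2CA day 15, 22.9 and 24.4 in the 4OH-TAM-labelled libraries, and 22 and 20.8 in gliomaspheres. Again HER2CA day 15 was set apart, with the other 6 libraries between 20.8 and 24.6 CPM, and the increase was 1.58 on the log2 scale (SE 0.0891, adjusted p = 4.35e-10).

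Mrps22, a mitochondria-specific protein of the small subunit, was at 28.3 and 26.2 CPM in control astrocytes, 65.3 and 71.1 in HER2CA day 15, 30.4 and 32 in the 4OH-TAM-labelled libraries, and 36.8 and 22.7 in gliomaspheres. It rose by 1.33 (SE 0.138, adjusted p = 4.27e-07) in HER2CA day 15, and the other groups lay well below it. Mrpl24, which lies near the exit of the peptide tunnel, rose by 1.32 (SE 0.091, adjusted p = 4.04e-09), from 43.7 and 52.2 CPM to 121 and 119 CPM, and stood at 47.6 and 45.4 in the 4OH-TAM-labelled libraries and 41 and 35.3 in gliomaspheres. Mrps31, another mitochondria-specific small-subunit protein, rose by 1.31 (SE 0.0861, adjusted p = 2.48e-09), from 26.6 and 26.7 CPM to 65.6 and 66.4 CPM, and stood at 24.2 and 23.3 in the 4OH-TAM-labelled libraries and 23.3 and 19.5 in gliomaspheres. None of these 3 genes had a HER2CA day 15 library that overlapped the control libraries. Mrps10 (chr17:47368887-47381417, plus strand), of the small subunit, had control levels of 39.5 and 38.1 CPM, HER2CA day 15 levels of 79.7 and 73.3 CPM, levels of 26.4 and 23.6 in the 4OH-TAM-labelled libraries, and 19.9 and 16 in gliomaspheres. Its 4 groups did not overlap one another, and it had the widest range of group means of all members (2.09 on the log2 scale).

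A few members ran against the rest. Mrpl36 (chr13:73328513-73332178, plus strand), a small protein of the large subunit, was at 15.3 and 16.3 CPM in control astrocytes, 6.14 and 6.04 in HER2CA day 15, 10.3 and 9.75 in the 4OH-TAM-labelled libraries, and 17.2 and 15.2 in gliomaspheres. Here HER2CA day 15 held the lowest libraries. Mrpl36 fell by 1.38 on the log2 scale (SE 0.123, adjusted p = 8.07e-08). Mrps36, the member outside the ribosome, fell by 1.34 (SE 0.171, adjusted p = 3.97e-06), with 13.9 and 13.5 CPM in control astrocytes, 6.32 and 4.59 in HER2CA day 15, and 15.7 and 11.3 in gliomaspheres. Mrps6 (chr16:92058270-92112227, plus strand) fell by 1.06 (SE 0.0794, adjusted p = 1.1e-08), from 104 and 106 CPM to 46.8 and 54 CPM. Slc5a3, with which it shares an exon, fell from 802 and 716 CPM to 226 and 225 CPM (log2 fold change -1.75, SE 0.137, adjusted p = 1.69e-08), and its part in the Mrps6 counts was not tested. HER2CA day 15 was the lowest group for both genes. Mrps33, of the small subunit, fell by 0.80 (SE 0.14, adjusted p = 9.69e-05) and Mrpl34, of the large subunit, by 0.66 (SE 0.12, adjusted p = 0.000127).

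**Figure D2:**
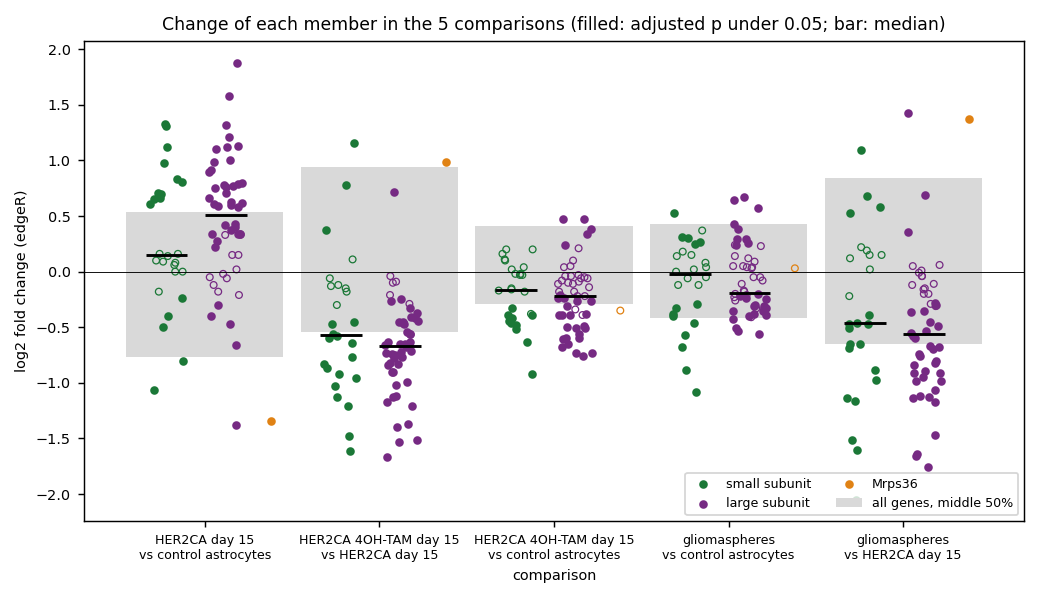
Log2 fold change of each member in the 5 comparisons, for the small subunit (green), the large subunit (purple) and Mrps36 (orange), with black bars at the subunit medians and grey bands for the middle 50% of all genes. Filled points passed the edgeR threshold, and most filled points lie above 0 in HER2CA day 15 against control astrocytes and below 0 in both comparisons with HER2CA day 15 as the reference.

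Members were also assigned to places in the ribosome, in lists that need not be complete. Over all genes 37.3% were called higher in this comparison. All 6 members assigned to the exit of the peptide tunnel rose (Mrpl22, Mrpl23, Mrpl24, Mrpl44, Mrpl45 and Mrpl47), with a median of 0.74. The weakest was Mrpl22 (0.28, SE 0.121, adjusted p = 0.0456), whose call was lost in 10 of the 18 alternatives. Its adjusted p was 0.071 with DESeq2, 0.352 with upper-quartile factors, 0.12 and 0.165 without control astrocytes A or B, 0.268 without HER2CA day 15 B, and 0.0602 without either 4OH-TAM-labelled library. Mrpl47 lost its call without HER2CA day 15 B (0.48, adjusted p = 0.0554). Among them, Mrpl44 rose by 0.90 (SE 0.0924, adjusted p = 3.58e-07). Mrpl45, known to tether the ribosome to the inner membrane, rose by 0.37 (SE 0.0748, adjusted p = 0.000394). Of the 3 members assigned to the stalk, where translation factors bind, Mrpl10 and Mrpl12 rose and Mrpl11 fell. Mrpl10, which holds Mrpl12 on the ribosome, changed by 0.34 (SE 0.0834, adjusted p = 0.00156) and Mrpl11 by -0.47 (SE 0.0958, adjusted p = 0.000369). Mrpl12 changed by 0.43 (SE 0.123, adjusted p = 0.00533), a call that was lost without control astrocytes A (adjusted p = 0.0769) or HER2CA day 15 B (adjusted p = 0.0893) and with upper-quartile factors (adjusted p = 0.0545). In the central protuberance (Mrpl18, Mrpl38, Mrpl40, Mrpl46 and Mrpl48), 2 members rose (40%, near the share of all genes), 1 fell and 2 did not pass. Mrpl38 rose by 0.91 (SE 0.0793, adjusted p = 5.75e-08), from 68.1 and 73.7 CPM to 132 and 134 CPM, whereas Mrpl18 fell by 0.40 (SE 0.105, adjusted p = 0.00264).

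The 3 paralogs of bacterial protein S18 all rose, in a comparison where 37.3% of all genes were called higher. Mrps18a was at 34.6 and 37.7 CPM in control astrocytes, 86 and 81.6 in HER2CA day 15, 30.5 and 33.2 in the 4OH-TAM-labelled libraries, and 38.1 and 35.8 in gliomaspheres. Only its HER2CA day 15 libraries stood apart, and the increase was 1.21 (SE 0.081, adjusted p = 2.9e-09). Mrps18b, of the small subunit, rose by 0.70 (SE 0.0987, adjusted p = 1.18e-05) and Mrps18c, the paralog at the place of bacterial S18, by 0.83 (SE 0.151, adjusted p = 0.000137). Mrps18c differed between the gliomasphere libraries, at 10.8 and 5.87 CPM, beside 14 and 14.7 CPM in control astrocytes and 25.5 and 25.4 in HER2CA day 15. Per kilobase of exon in control astrocytes the 3 paralogs were at 9.8, 12.5 and 13.3 CPM, in the order a, b and c. Mrps30, which shares the small-subunit name but not the place, rose by 0.66 (SE 0.0767, adjusted p = 1.49e-06).

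**Figure D3:**
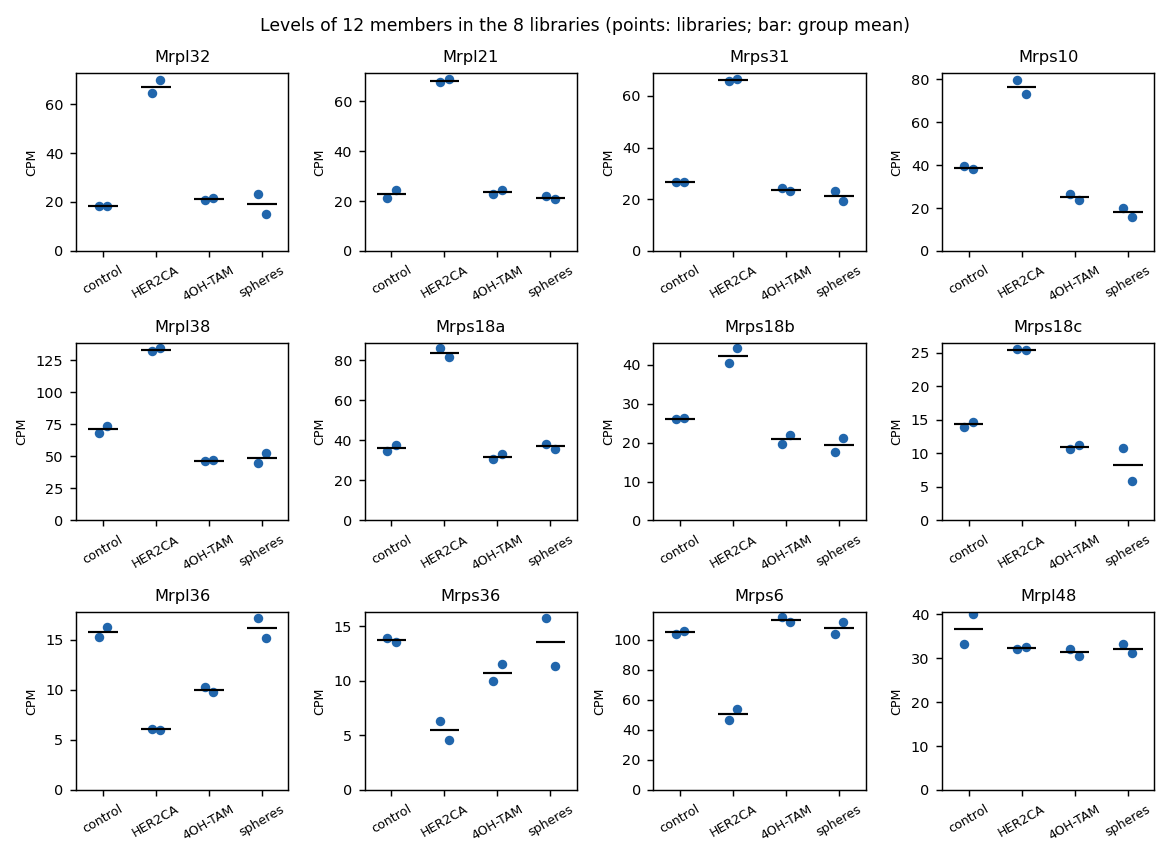
CPM of 12 members in the 8 libraries, with points for libraries and bars for group means, each axis starting at 0. Mrpl32, Mrpl21, Mrps31 and the Mrps18 paralogs peak in HER2CA day 15, Mrpl36, Mrps36 and Mrps6 are lowest there, and Mrpl48 is nearly level.

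Some members varied little between groups. Mrpl48, of the central protuberance, was at 33.2 and 40 CPM in control astrocytes, 32.2 and 32.6 in HER2CA day 15, 32.2 and 30.6 in the 4OH-TAM-labelled libraries, and 33.2 and 31.1 in gliomaspheres. It had the narrowest range of group means (0.22 on the log2 scale), and neither it nor Mrps11 passed the threshold in any of the 5 comparisons. Mrps25 and Mrps21, both of the small subunit, followed, with ranges of 0.27 and 0.29. Mrps25 lay between 41.4 and 54.1 CPM and Mrps21 between 32.2 and 43.3 CPM in the 8 libraries. By contrast 13 members passed in all 5 comparisons, among them Mrps10, Mrpl38 and Mrpl49. The same count over all genes is not given, so 13 is not read as a result about the members.

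The second comparison set 4OH-TAM-labelled libraries against HER2CA day 15, both with doxycycline. Here 60 members were lower, 5 higher and 12 did not pass. Over all genes 39.7% were called lower and 40.8% higher. The median change of the members was -0.64, beside 0.01 over all genes. In the large subunit 44 of 50 fell and 1 rose (median -0.67), and in the small subunit 16 of 26 fell and 3 rose (median -0.57). This comparison and the first share the HER2CA day 15 libraries, so the values of the members in both are given side by side and not as independent evidence.

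Mrpl32 fell by 1.67 (SE 0.124, adjusted p = 8.43e-09) between HER2CA day 15 and the 4OH-TAM-labelled libraries, after its change of 1.88 over control. Mrps10 fell by 1.61 (SE 0.0957, adjusted p = 6.86e-10), beside 0.98 over control. Mrpl21 fell by 1.53 (SE 0.0885, adjusted p = 5.2e-10), beside 1.58. Mrpl38, of the central protuberance, fell by 1.51 (SE 0.0813, adjusted p = 2.22e-10), beside 0.91, and stood at 46.2 and 47.1 in the 4OH-TAM-labelled libraries, below both control libraries. Mrps31 fell by 1.48 (SE 0.0868, adjusted p = 6.16e-10), beside 1.31. Mrps18a, Mrps18b and Mrps18c changed by -1.40, -1.03 and -1.21, with adjusted p of 5.8e-10, 1.79e-07 and 3.29e-06. The 6 members at the tunnel exit (median -0.87) and the 3 stalk members (median -0.44) fell. Mrpl11 was the weakest of the stalk (-0.26, adjusted p = 0.0262), and its adjusted p was 0.0732 with DESeq2, 0.65 with upper-quartile factors, 0.0665 and 0.0878 without HER2CA day 15 A or B, and 0.192 without the labelled 4OH-TAM library B. The stalk proteins Mrpl10 and Mrpl12 changed by -0.44 (adjusted p = 0.000185) and -0.74 (adjusted p = 5.91e-05), and Mrps30 by -0.90 (adjusted p = 4.49e-08).

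The 5 members that rose were Mrps6, Mrps36, Mrps33, Mrpl36 and Mrps14. Each of them had been lower in HER2CA day 15 than in control astrocytes. Mrps6 rose by 1.16 (SE 0.0793, adjusted p = 3.27e-09) to 115 and 112 CPM, and Slc5a3 rose to 642 and 575 CPM. Mrps36 rose by 0.99 (SE 0.174, adjusted p = 9.15e-05) to 9.96 and 11.5 CPM. Mrps33 rose by 0.78 (SE 0.139, adjusted p = 0.000102) to 25.9 and 26.1 CPM, within the range of 25.9 to 26.7 CPM of the controls. Mrpl36 rose by 0.72 (SE 0.128, adjusted p = 9.87e-05) and stayed below the controls. Mrps14, of the small subunit, rose by 0.37 (SE 0.102, adjusted p = 0.0037).

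Against control astrocytes, the 4OH-TAM-labelled libraries had 33 members lower and 5 higher, and 39 did not pass. Over all genes 28.2% were called lower and 31% higher. The median change was -0.21, beside 0.00 over all genes, and the SD over members was 0.30. The large subunit had 23 lower and 5 higher of 50, and in the small subunit 10 of 26 were lower and the other 16 did not pass.

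The largest decreases from control were those of Mrps34, a mitochondria-specific small-subunit protein (-0.92, SE 0.0874, adjusted p = 5.39e-07), Mrpl34 (-0.76, SE 0.12, adjusted p = 7.25e-05), Mrpl11 (-0.73, SE 0.0969, adjusted p = 1.47e-05), Mrpl43 (-0.73, SE 0.096, adjusted p = 1.38e-05) and Mrpl53 (-0.68, SE 0.2, adjusted p = 0.00897). Mrps34 did not pass between HER2CA day 15 and control astrocytes (0.00, adjusted p = 0.977). It was at 50.4 and 48.6 CPM in control astrocytes, 47.5 and 51.6 in HER2CA day 15, 27.2 and 25.3 in the 4OH-TAM-labelled libraries, and 28.4 and 24.8 in gliomaspheres. The first 2 groups overlapped, as did the last 2, with a gap between the pairs. Exons of Mrps34 overlap those of Nme3 on the same strand and of Mapk8ip3 on the opposite strand, whose reads may not be separable. The 5 members above control were Mrpl49 (0.47, SE 0.0852, adjusted p = 0.000239), Mrpl1 (0.47, SE 0.107, adjusted p = 0.0017), Mrpl50 (0.38, SE 0.0775, adjusted p = 0.000665), Mrpl13 (0.34, SE 0.1, adjusted p = 0.00949) and Mrpl3 (0.24, SE 0.0834, adjusted p = 0.0224). Mrpl1 forms the mobile stalk beside the tRNA exit site, and Mrpl3 lies near the centre where peptide bonds form. Their count was 3 without control astrocytes A or without the labelled 4OH-TAM library B, 8 without gliomaspheres A and 9 without gliomaspheres B. Without control astrocytes A the adjusted p was 0.131 for Mrpl3, 0.0649 for Mrpl13 and 0.0569 for Mrpl53, and without the labelled 4OH-TAM library B it was 0.0848, 0.0535 and 0.1.

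Gliomaspheres, compared with control astrocytes, had 27 members lower and 14 higher, and 36 did not pass. Over all genes 32% were called lower and 32.5% higher. The median change was -0.11, beside -0.01 over all genes. The increases were led by Mrpl20 (0.67, SE 0.134, adjusted p = 0.000457), Mrpl50 (0.64, SE 0.0794, adjusted p = 4.83e-06), Mrpl49 (0.57, SE 0.0881, adjusted p = 4.53e-05), Mrps27 (0.53, SE 0.0884, adjusted p = 9.43e-05) and Mrpl13 (0.43, SE 0.104, adjusted p = 0.00226). Mrps27, a small-subunit protein of the pentatricopeptide repeat family, was at 22.8 and 22.2 CPM in control astrocytes, 22.1 and 23.1 in HER2CA day 15, 20.1 and 20.6 in the 4OH-TAM-labelled libraries, and 33 and 32 in gliomaspheres. The gliomasphere libraries were the highest, and the 4OH-TAM-labelled libraries lay below all others. The decreases were led by Mrps10 (-1.08, SE 0.106, adjusted p = 4.72e-07), Mrps34 (-0.88, SE 0.0916, adjusted p = 8.15e-07), Mrps18c (-0.68, SE 0.175, adjusted p = 0.00342), Mrps16 (-0.57, SE 0.128, adjusted p = 0.00129) and Mrpl38 (-0.56, SE 0.0847, adjusted p = 4.06e-05).

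The gliomasphere libraries disagreed over the members. Library B was below library A in 62 of 77 members, with a median log2 ratio of B to A of -0.21, beside 0.01 over the 11673 genes at 1 CPM or more in every library, of which 5667 were lower in B. The ratio was -0.26 in the 38 members with a shorter exon length (lower in B in 33) and -0.18 in the 39 longer ones (lower in 29), split at 2255 bases. Library B was the one with 36.1% of counts on Rn45s, and the part of this in its lower values was not tested. Without gliomaspheres A, 7 members were higher than control and the median was -0.27, and Mrpl13 lost its call (0.21, adjusted p = 0.119). Without control astrocytes A, 8 were higher. Without scaling factors, 0 were higher in edgeR (0 at an unadjusted p under 0.05, and 13 with DESeq2's own factors) and 10 lower than control, and the median was -0.41, beside -0.33 over all genes. At that setting 7 members changed sign: Mrpl18, Mrpl28, Mrpl3, Mrpl4, Mrps25, Mrps5 and Mrps9.

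Between gliomaspheres and HER2CA day 15, 48 members were lower, 8 higher and 21 did not pass. Over all genes 40.4% were called lower and 38.4% higher. The median change was -0.49, beside -0.03 over all genes, and the SD over members was 0.68. The large subunit had 33 lower and 3 higher of 50, and the small subunit 15 lower and 4 higher of 26. Mrps10 had the largest decrease (-2.05, SE 0.104, adjusted p = 8.21e-11), followed by Mrpl32 (-1.76, SE 0.131, adjusted p = 7.21e-09), Mrpl21 (-1.66, SE 0.0942, adjusted p = 2.97e-10), Mrpl24 (-1.64, SE 0.0958, adjusted p = 4.38e-10) and Mrps31 (-1.60, SE 0.0921, adjusted p = 3.64e-10). The 6 members at the tunnel exit fell (median -0.90). The increases were those of Mrpl36 (1.43, SE 0.128, adjusted p = 6.32e-08), Mrps36 (1.37, SE 0.178, adjusted p = 4.22e-06), Mrps6 (1.09, SE 0.0809, adjusted p = 6.63e-09), Mrpl18 (0.69, SE 0.107, adjusted p = 2.64e-05) and Mrps33 (0.68, SE 0.146, adjusted p = 0.000574), besides 3 smaller ones. The Mrps33 call was lost without gliomaspheres A (0.27, adjusted p = 0.0825).

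Scaling changed the counts in all 5 comparisons. Without scaling factors, 23 members were higher and 5 lower in HER2CA day 15 than in control astrocytes, 25 were lower in the 4OH-TAM-labelled libraries than in HER2CA day 15, and 1 was lower in those libraries than in control astrocytes. With gliomaspheres B also left out, a setting chosen after seeing the data, the counts were 47, 13, 58 and 32. With all 8 libraries unscaled, the SE of Mrpl22 and Mrpl47 in the first comparison went from 0.121 and 0.16 to 0.299 and 0.307. That of Mrpl11 in the second went from 0.0988 to 0.301. The share of all genes called without scaling factors is not given, so the drop is not read as particular to the members. Upper-quartile factors moved the median of all genes to -0.17 in the first comparison and to 0.22 in the second. Relative to all genes, the median of the members in the first comparison was 0.42 with TMM factors and lay between 0.35 and 0.48 in the 18 alternatives. In the second it was -0.65 with TMM factors and lay between -0.68 and -0.55.

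Promoters of the members are shown because so many of the members moved in 1 direction in HER2CA day 15. NRF1, factors of the ETS family such as GABP, and YY1 are known regulators of nuclear genes for mitochondrial proteins. RefSeq windows on GRCm38.p6, from 250 bases before to 50 after the start, were at hand for 68 of the 77 members (the first window for the 3 with more than 1). Each window was searched on both strands for fixed letters, and matches to one motif may overlap matches to another. The NRF1 letters GCGCNTGCG were in 26.5% of the members' windows, against 13.9% of 10339 windows of genes in the count table and 6.59% of all 27025 windows. The ETS letters CCGGAAG were in 35.3%, 17.5% and 9.12%, and the YY1 letters AANATGGCG in 14.7%, 5.19% and 2.51%. The E-box CACGTG, which MYC with MAX can bind, was in 7.35%, 10% and 7.24%. Neither the ATF4 letters TGATGNAA nor the TEAD letters ACATTCC were found in the members' windows, against 2.15% and 2.45% of windows in the table. At shares that low, few of 68 windows would hold a match, so the lack of matches was not read as a result. Of the 42 members with a window that rose in HER2CA day 15, 14 held the NRF1 letters, against 2 of the 11 that fell and 2 of the 15 that did not pass. In the same order, the ETS letters were in 12 of 42, 5 of 11 and 7 of 15. The YY1 letters were in 6, 1 and 3, and the E-box in 4, 1 and 0. These differences were not tested, and few members fell or did not pass. A match is a description of these letters only.

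The following stretches on GRCm38.p6, from RefSeq, end 0 to 38 bases before the start, on the member's strand and outside annotated exons of any gene, with matches in capitals. They show members that rose in HER2CA day 15 with ETS letters (Mrps22, Mrps18a), with NRF1 letters (Mrpl45, Mrpl17) and with none of the motifs (Mrpl24), members that fell with ETS letters (Mrpl34) and with no match (Mrps36), and the member that varied least (Mrpl48).
Mrps22 (chr9:98601680-98601829, minus strand): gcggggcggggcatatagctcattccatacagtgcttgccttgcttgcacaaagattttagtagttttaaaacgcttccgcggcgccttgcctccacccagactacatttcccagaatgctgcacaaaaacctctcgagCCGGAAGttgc
Mrps18a (chr17:46110854-46110985, plus strand): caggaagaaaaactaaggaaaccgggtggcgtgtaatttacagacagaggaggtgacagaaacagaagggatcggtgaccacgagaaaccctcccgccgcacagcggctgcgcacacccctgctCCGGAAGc
Mrpl45 (chr11:97315566-97315715, plus strand): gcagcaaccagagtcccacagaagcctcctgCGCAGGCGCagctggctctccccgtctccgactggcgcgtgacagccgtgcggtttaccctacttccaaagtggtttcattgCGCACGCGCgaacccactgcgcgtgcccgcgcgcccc
Mrpl17 (chr7:105811100-105811237, minus strand): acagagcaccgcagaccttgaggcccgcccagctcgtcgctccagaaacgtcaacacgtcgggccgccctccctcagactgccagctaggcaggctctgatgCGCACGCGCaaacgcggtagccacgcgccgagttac
Mrpl24 (chr3:87919394-87919505, plus strand): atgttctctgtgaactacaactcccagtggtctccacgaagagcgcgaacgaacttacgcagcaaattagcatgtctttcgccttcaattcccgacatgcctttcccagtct
Mrpl34 (chr8:71464776-71464925, plus strand): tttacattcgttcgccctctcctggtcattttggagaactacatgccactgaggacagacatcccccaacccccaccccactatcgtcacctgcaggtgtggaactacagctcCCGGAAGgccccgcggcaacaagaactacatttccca
Mrps36 (chr13:100744660-100744809, minus strand): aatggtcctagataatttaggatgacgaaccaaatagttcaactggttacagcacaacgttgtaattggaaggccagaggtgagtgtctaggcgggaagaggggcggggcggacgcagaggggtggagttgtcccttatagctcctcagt
Mrpl48 (chr7:100608302-100608451, minus strand): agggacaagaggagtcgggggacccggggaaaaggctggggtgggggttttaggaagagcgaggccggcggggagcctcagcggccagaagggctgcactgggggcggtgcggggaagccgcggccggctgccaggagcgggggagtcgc
Of these 8 stretches, the Mrpl45 stretch has a pair of NRF1 matches and the Mrps36, Mrpl24 and Mrpl48 stretches have no match. The window of Mrpl32 held 3 NRF1 matches, of which 2 overlap on opposite strands. It holds annotated exons and is not printed.

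Many members have an annotated start near that of another gene. Starts were the outer gene boundaries in GENCODE M21. A start on the opposite strand within 1000 bases was annotated for 33 of 77 members (42.9%), against 1998 of 12725 protein-coding genes of the table (15.7%). Neighbours did not always move alike in HER2CA day 15. The starts of Mrpl36 and Ndufs6, a complex I subunit, lie 29 bases apart, and the genes changed by -1.38 and 0.43 (adjusted p = 0.00237 for Ndufs6). In the RefSeq window the start of Mrpl36 follows chr13:73331008, more than 1000 bases from Ndufs6, whose gene ends at 73328542. Whether this pair lies within 1000 bases thus depends on the annotation. Mrpl32 and the proteasome gene Psma2 have starts 75 bases apart and changed by 1.88 and 0.55 (adjusted p = 7.11e-05 for Psma2). Mrpl49 and Fau, the gene of a cytosolic ribosomal protein, lie 59 bases apart and changed by 1.10 and 0.78 (adjusted p = 0.000119 for Fau). Mrpl46 and Mrps11, both members, lie 412 bases apart, and Mrpl46 changed by 0.77 (adjusted p = 7.97e-06) while Mrps11 did not pass (0.16, adjusted p = 0.376). Exons of Mrpl36, Mrpl46, Mrpl49 and Mrps11 overlap a gene on the opposite strand, whose reads may not be separable.

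The ribosome has further proteins whose symbols fall outside the rule, and 6 of them were measured. Ptcd3, at the mRNA entrance of the small subunit, was at 35.6 and 34.6 CPM in control astrocytes, 111 and 106 in HER2CA day 15, 54.3 and 55.2 in the 4OH-TAM-labelled libraries, and 56.9 and 59.1 in gliomaspheres. HER2CA day 15 was highest and the controls lowest, with no overlap between them (log2 fold change 1.63, SE 0.0727, adjusted p = 3.72e-11). Aurkaip1, Dap3 and Ict1 rose over control by 0.95, 0.92 and 0.73 (adjusted p = 3.93e-08, 1.73e-08 and 5.38e-06). Chchd1 did not pass (0.08, adjusted p = 0.619). Gadd45gip1, at the tunnel exit, fell by 0.84 (SE 0.167, adjusted p = 0.000289). In the 4OH-TAM-labelled libraries 5 of the 6 were lower than in HER2CA day 15 (83.3%, against 39.7% of all genes). Gadd45gip1 was higher, a call lost without HER2CA day 15 A (0.37, adjusted p = 0.136) or the labelled 4OH-TAM library B (0.41, adjusted p = 0.102). In gliomaspheres Gadd45gip1 was also above HER2CA day 15 (0.78, SE 0.174, adjusted p = 0.000784), a call lost without gliomaspheres A (0.29, adjusted p = 0.121), so at the tunnel exit it ran against the 6 members.

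Factors that build, start and feed this ribosome were counted next, beside the 37.3% of all genes called higher and 38.4% called lower in this comparison. Of 29 genes for its assembly and rRNA modification, 21 were higher and 3 lower in HER2CA day 15 than in control astrocytes (median 0.57). Lrpprc, which stabilises mitochondrial mRNAs, rose by 1.54 (SE 0.0773, adjusted p = 1.29e-10) and the pseudouridine synthase Rpusd4 by 1.18 (SE 0.112, adjusted p = 1.6e-07), whereas Mpv17l2 fell by 0.59 (SE 0.0865, adjusted p = 1.65e-05). Of 15 mitochondrial translation factors 7 rose (46.7%, near the share of all genes) and 2 fell (median 0.24), with the recycling factors Mrrf and Gfm2 at 0.96 and 0.86 (adjusted p = 1.17e-07 and 1.08e-07). Of 12 genes for mitochondrial DNA transcription and maintenance 10 rose and 2 fell (median 0.50). Of 17 import factors, chaperones and mass markers 13 rose and 1 fell (median 0.75), led by the protease Lonp1 at 2.60 (SE 0.0839, adjusted p = 1.9e-12) and the chaperone Hspa9 at 2.02 (SE 0.0852, adjusted p = 2.06e-11). The gene that fell was citrate synthase, Cs, a common measure of mitochondrial mass (-0.27, SE 0.0743, adjusted p = 0.00402), and the outer-membrane channel Vdac2 did not pass (0.12, adjusted p = 0.281). Of 12 activators of nuclear genes for mitochondria 8 rose and 3 fell (median 0.50). Among them, Ppargc1a fell by 2.56 (SE 0.0878, adjusted p = 2.82e-12) and Myc rose by 2.34 (SE 0.0974, adjusted p = 1.74e-11).

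The members were set beside the proteins of the cytosolic ribosome and of the respiratory chain. Of 77 cytosolic ribosomal proteins 62 were higher and 1 lower in HER2CA day 15 than in control astrocytes (median 0.61). In the 4OH-TAM-labelled libraries 67 were lower and 1 higher than in HER2CA day 15 (median -0.75). The 62 and 67 were 80.5% and 87%, against 37.3% and 39.7% of all genes. In gliomaspheres 35 of the cytosolic proteins were above control and 7 below (median 0.17), beside 14 and 27 of the 77 mitochondrial members (median -0.11). These were 45.5% and 9.09%, beside 18.2% and 35.1%. Over all genes 32.5% were above and 32% below, so the members' share below was near that of all genes. Of 78 nuclear-encoded subunits of oxidative phosphorylation, 26 were higher (33.3%, against 37.3% of all genes) and 21 lower in HER2CA day 15 than in control astrocytes (median -0.02). In the 4OH-TAM-labelled libraries 43 of them were lower and 10 higher than in HER2CA day 15 (median -0.26). Against control astrocytes 40 were lower and 2 higher (median -0.25), and both medians had the same direction as the members. The 43 and 40 were 55.1% and 51.3%, against 39.7% and 28.2% of all genes called lower. Both HER2CA day 15 libraries lay above the other 6 in 56 of 77 cytosolic ribosomal proteins, 47 of 77 members and 19 of 78 oxidative phosphorylation subunits, against 31.5% of all genes (72.7%, 61% and 24.4%). Differences between the lists were not tested.

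**Figure D4:**
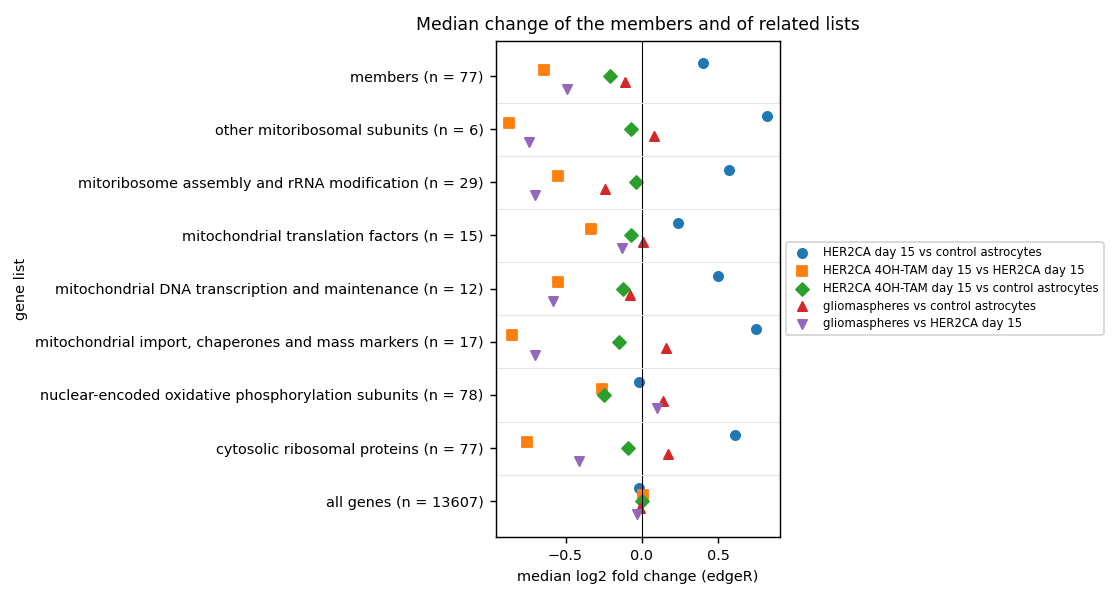
Median log2 fold change (horizontal axis) of the members and of related gene lists (rows, with the number of genes), with 1 symbol for each of the 5 comparisons. In HER2CA day 15 against control astrocytes the members' median is 0.40, that of cytosolic ribosomal proteins 0.61 and that of oxidative phosphorylation subunits -0.02.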

How the data were processed

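The authors deposited 1 table of raw read counts, whole numbers with a gene symbol per row, as the values show. Libraries were polyA-selected with a stranded kit, per the labels' protocols. The submitters' processing notes list STAR 2.5.3a, FastQC and featureCounts, and as builds GRCm38 and mm10. For the counting, no annotation or strand setting is stated in these sources. These counts were fitted with edgeR 4.0.16 (R 4.3.3), using TMM factors, filterByExpr (all 13607 genes kept), 1 mean per group over all 8 libraries (4 residual degrees of freedom), and quasi-likelihood tests. Benjamini-Hochberg adjustment ran over the whole table, and an adjusted p under 0.05 was called. The SE of a log2 fold change is its size over the root of F. The fitting steps were tested on simulated data, where most of the smallest fold changes were missed and false calls were somewhat above the nominal rate, so small calls are less certain. No pair of libraries agreed within sampling noise (chi-square per degree of freedom 4.05 to 733). This used raw counts and library totals, with Rn45s included and no scaling factors. The 733 was that of gliomaspheres, whose library B had 36.1% of counts on Rn45s, and the other groups lay between 4.05 and 12.6.

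The members, lists and tests were chosen with earlier results of these data known. In each comparison the text names the 5 largest increases and decreases among called members whose groups do not overlap, the 8 members called in 3 or more comparisons with the widest range of group means, the 3 narrowest, the Mrps18 paralogs, Mrps36, Mrps30, Mrpl10 and Mrpl12, further ribosomal subunits, and up to 3 genes per list with the lowest p. Other names serve a place in the ribosome or a nearby start, or are the genes of a list that ran against it. They were chosen after their values were seen. Ict1 stands for Mrpl58, the 1 gene of GENCODE M21 that matches the rule and has no row under that symbol. Subunits follow the unified ribosomal protein nomenclature. Alternatives were other scaling factors, filters, DESeq2 1.42.0, the 2 groups alone, a replicate block and each library left out.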

Additional observations from a re-analysis of the deposited data

How the results depend on the processing

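Of 270 counts and medians recomputed over 18 alternatives, 245 stayed within 1.5 times (counts) or 1 SD (medians) and 0 reversed. The counts without scaling factors are given with no share of all genes called at that setting. Without scaling factors, members higher and lower in HER2CA day 15 than control numbered 23 and 5. Members lower in the 4OH-TAM-labelled libraries than in HER2CA day 15 numbered 25 (median -0.52). Those libraries had 0 members above control (edgeR, 0 at an unadjusted p under 0.05) and 1 below. DESeq2, run only with its own scaling factors, had 5 above. Without scaling factors gliomaspheres had 0 above and 10 below control (median -0.41), and 3 members were higher in gliomaspheres than in HER2CA day 15 (median -0.74). At that setting gliomaspheres against control reversed for Mrps25 (-0.06) and for Dap3 (-0.13). With gliomaspheres B also left out, the median of the second comparison was -0.52 and 10 members were above control in the 4OH-TAM-labelled libraries. Upper-quartile factors gave medians of 0.25 for HER2CA day 15 against control, -0.44 for 4OH-TAM-labelled libraries against HER2CA day 15 and -0.37 for gliomaspheres against HER2CA day 15, and shifted the median of all genes alike. With only the 2 groups compared, 8 members were above control in the 4OH-TAM-labelled libraries. Leaving out 1 library at a time, that count ran from 3 to 9, the count above control in gliomaspheres from 7 to 18 (median -0.27 to -0.05), and the median of gliomaspheres against HER2CA day 15 from -0.69 to -0.39. The cause was not tested.

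The sources do not say whether the letters A and B pair the samples. Over all genes, the correlation between groups of the A minus B difference ran from -0.0314 to 0.0554. A low correlation cannot exclude a shared batch or origin. With a replicate block, 46 members were higher and 11 lower in HER2CA day 15 than control, 60 were lower in the 4OH-TAM-labelled libraries than in HER2CA day 15, and gliomaspheres had 28 members below control. Of 142 results for named genes, 107 were called, and the replicate block lost 2 of these calls, DESeq2 5, upper-quartile factors 7 and no scaling factors 44. With 2 libraries a group, small changes cannot be told from the spread between libraries.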
